A study of Mus musculus with 9 samples.

Results

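Small intestinal mesenchyme exposed to Sonic hedgehog (Shh) was compared directly with the same tissue exposed to Indian hedgehog (Ihh), gene by gene. The comparison rested on the 3 Shh arrays and the 3 Ihh arrays among the 9 arrays of the series, the other 3 being Vehicle controls. It covered 18193 genes, each read by its brightest probe set with a single gene symbol. All groups came from C57Bl/6J embryos at E18.5 with no engineered allele. The epithelium was removed, and the remaining mesenchyme spent 48 h on collagen, with Shh, Ihh or Vehicle present for 24 h. The 6 wells of each treatment were combined at random into 3 samples. Replicates were therefore pools of wells, and every p-value reflects only how far such pools differed. Neither dose nor source of the ligands is given in the sources used here, and so a difference between the treatments cannot be told apart from a difference in ligand activity in the medium.

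Shh and Ihh are paralogous secreted proteins, made by gut epithelium and sensed by the mesenchyme beneath it. Either ligand binds the receptor Ptch1, which releases Smoothened (Smo) and lets the Gli transcription factors switch on targets that include Ptch1, Gli1 and Hhip themselves. Both reach the same receptor, so the direct contrast asks which transcripts the ligands affected unequally and which equally. In whole tissue, fewer cells of a type and less RNA per cell cannot be told apart.

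The arrays were alike in overall signal, with medians of 5.87 to 5.92 log2 and pairwise correlations of 0.991 to 0.998. Connective tissue transcripts were high on all arrays, Col1a2 at 11.72 to 12.30 log2 and Pdgfra at 11.73 to 12.06, and the leukocyte gene Cd53 at 10.69 to 11.08. The pools differed in embryo sex. Xist, expressed from the inactive X chromosome, read 11.31, 11.24 and 6.43 log2 on the Shh arrays, 10.04, 10.28 and 10.66 on the Ihh arrays and 10.83, 6.34 and 6.48 on the Vehicle arrays. The Y-linked gene Eif2s3y read 3.24, 3.17 and 8.44 with Shh, 8.51, 7.54 and 7.74 with Ihh and 6.24, 8.66 and 8.98 with Vehicle. Shh 1 and Shh 2 thus had the pattern of female tissue, Shh 3 that of male tissue, and all 3 Ihh pools had both transcripts. The 3 prime minus 5 prime signal of the Gapdh control probe sets, which tracks RNA integrity, was -0.15 to -0.18 log2 with Shh and -0.17 and -0.19 on 2 Ihh arrays, but -0.04 on Ihh 1. On the Vehicle arrays it was 0.03, -0.08 and -0.05. Shh 3 stood apart on the third principal component, which held 12.9% of the variance.

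Few differences between the ligands could be called at this number of arrays. With limma and Benjamini-Hochberg adjustment over all genes at 0.05, 2 genes differed (0.0110% of those tested), Acod1 and Marco, and both were higher with Shh. Genes higher with Ihh numbered 0 (0.00%), against 1086 at an unadjusted p under 0.05, and 1 or 2 such genes passed under 3 other settings of the fit. In either direction 2390 genes (13.1%) had an unadjusted p under 0.05, with 1304 higher with Shh (7.17%) and 1086 with Ihh (5.97%). A p that misses the threshold does not show equality, so the 95% confidence interval of each difference was read as well. For 17409 genes (95.7%) the whole interval lay within 1.5-fold of no difference, and for 12558 (69.0%) within 1.25-fold. The median interval reached 1.13-fold to either side of its estimate. The share within 1.5-fold was 95.4% among the 10701 genes that stayed above the array median on every array. Measured differences of 1.5-fold or more were seen for 66 genes, 17 higher with Shh and 49 higher with Ihh. In 22 of these 66 the Shh and Ihh arrays did not overlap, beside 3148 of all genes (17.3%).

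Acod1 encodes the enzyme that makes the antimicrobial metabolite itaconate in activated macrophages. It read 6.56, 6.31 and 6.30 log2 on the Shh arrays, 5.38, 5.11 and 5.35 on the Ihh arrays and 8.23, 8.24 and 8.20 on the Vehicle arrays. The 3 groups did not overlap, with Vehicle highest, Shh in the middle and Ihh lowest. Acod1 was 2.15-fold higher with Shh than with Ihh (95% interval 1.87 to 2.48), a log2 difference of 1.11 ± 0.09 (SE, n = 3 and 3, limma adjusted p = 0.00519). Against Vehicle it fell 3.57-fold with Shh and 7.68-fold with Ihh, on the same Vehicle arrays. The Ihh readings were below the array medians, where RMA compresses differences, so the Ihh fall may be understated.

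Marco encodes a scavenger receptor with which macrophages bind bacteria and particles. Its readings were 8.85, 8.99 and 8.88 log2 with Shh, 7.12, 6.68 and 7.57 with Ihh and 11.15, 11.16 and 11.33 with Vehicle. The order was that of Acod1, again without overlap, and the Ihh arrays were the most scattered (SD 0.44, against 0.07 with Shh). Marco was 3.44-fold higher with Shh than with Ihh (95% interval 2.62 to 4.52), a log2 difference of 1.78 ± 0.18 (SE, n = 3 and 3, limma adjusted p = 0.0142). It fell 4.94-fold with Shh and 17.0-fold with Ihh against Vehicle. A second Marco probe set gave a log2 difference of 1.89 between the ligands. Over settings that left out an array the log2 difference stayed between 1.56 and 2.01, but the call ended without Shh 1 (adjusted p = 0.157), Shh 2 (0.0875), Shh 3 (0.0815), Ihh 1 (0.142), Vehicle 1 (0.0502) or Vehicle 2 (0.0546). When the spread came from the 6 ligand arrays alone, Acod1 had an adjusted p of 0.0948 and Marco of 0.164. With the sex-linked transcripts as a covariate both stayed past the threshold, at 0.0235 and 0.0444, and with Gapdh as a covariate Acod1 did (0.0152) and Marco did not (0.0709).

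The sequences just upstream of these genes are shown because they are the 2 genes that separated the ligands. Each is the 250 bases before the start in RefSeq (GRCm38.p6), written 5′ to 3′ on the gene's strand, at chr14:103046762-103047011 on the plus strand for Acod1 and chr1:120505025-120505274 on the minus strand for Marco. Capitals mark the only motif match found.
Acod1: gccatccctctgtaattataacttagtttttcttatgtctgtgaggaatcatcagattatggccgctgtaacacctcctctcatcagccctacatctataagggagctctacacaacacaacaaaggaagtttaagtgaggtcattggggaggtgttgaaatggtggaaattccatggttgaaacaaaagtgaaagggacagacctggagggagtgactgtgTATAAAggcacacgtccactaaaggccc
Marco: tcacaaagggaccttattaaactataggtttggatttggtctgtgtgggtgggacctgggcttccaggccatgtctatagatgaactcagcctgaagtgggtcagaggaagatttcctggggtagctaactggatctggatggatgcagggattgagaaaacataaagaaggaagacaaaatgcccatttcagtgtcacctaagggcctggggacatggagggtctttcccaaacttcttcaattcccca
The Acod1 window held a TATA box, TATAAA, from 28 to 23 bases before the start on the gene's strand, a motif present in 12.4% of 32851 such windows. Neither window held, on either strand, the Gli motif GACCACCCA (0.225% of windows), the AP-1 motif TGANTCA (6.75%), the interferon-stimulated response element (2.98%) or the NF-kB consensus (3.9%). The Marco window held none of the 5. These searches say only that the letters were or were not in this window.

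**Figure D1:**
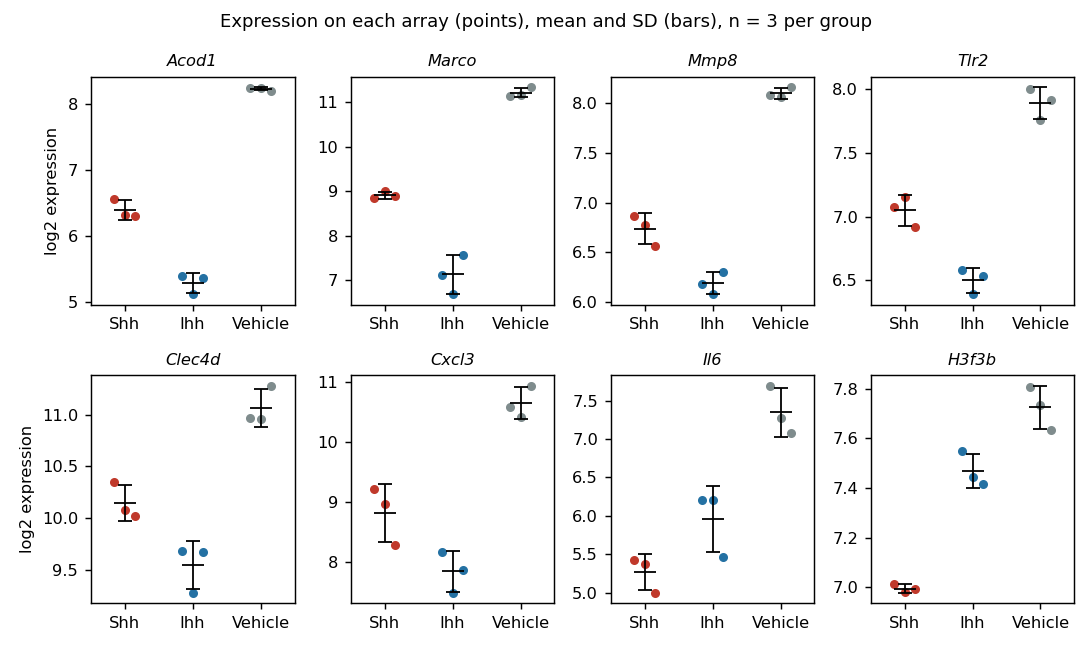
Log2 expression (y axis) of 8 genes on each Shh, Ihh and Vehicle array (points), with group mean and SD as bars, n = 3 per group; each panel has its own y axis, which does not start at 0. Acod1, Marco, Mmp8, Tlr2, Clec4d and Cxcl3 lie lower with Ihh than with Shh, and Il6 and H3f3b lie lower with Shh.

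Other Shh-higher genes are given as values short of the threshold, chosen either for the smallest p among genes that respond to the ligands or for a difference of 1.5-fold without overlap. Mmp8, a neutrophil collagenase, read 6.87, 6.78 and 6.57 log2 with Shh, 6.18, 6.08 and 6.30 with Ihh and 8.08, 8.06 and 8.16 with Vehicle. Its difference between the ligands was 0.55 ± 0.09 on the log2 scale (SE, limma adjusted p = 0.221). Tlr2, a receptor for bacterial lipoproteins, read 7.07, 7.15 and 6.92 with Shh, 6.58, 6.39 and 6.53 with Ihh and 7.998, 7.75 and 7.92 with Vehicle. Its difference was 0.55 ± 0.09 (adjusted p = 0.221), and as for Mmp8 the 3 groups did not overlap. Clec4d and Clec4e are neighbouring C-type lectin receptors for microbial glycolipids. The difference was 0.60 ± 0.13 for Clec4d (adjusted p = 0.284) and 0.60 ± 0.22 for Clec4e (0.322), whose second probe set gave 0.05. Clec4e read 5.61, 5.68 and 4.90 log2 with Shh and 4.70, 4.81 and 4.86 with Ihh. All of these lay below the array medians, where RMA compresses differences. For the neutrophil chemokine Cxcl3, with 9.21, 8.96 and 8.27 log2 under Shh and 8.16, 7.48 and 7.86 under Ihh, the difference was 0.98 ± 0.24 (adjusted p = 0.285). In these 5 genes the Vehicle arrays lay above both ligands. Over all genes every Shh array lay above every Ihh array in 9.37% and below in 7.93%, and the lack of overlap was itself a condition for naming Clec4d, Clec4e and Cxcl3.

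For 3 other genes the Shh arrays lay above Ihh and Vehicle alike. Blnk, an adaptor of B-cell and macrophage signalling, read 6.28, 5.68 and 6.03 log2 with Shh, 5.24 to 5.42 with Ihh and 5.35 to 5.55 with Vehicle, with a ligand difference of 0.69 ± 0.13 (SE, adjusted p = 0.236). Mcoln3, an endolysosomal cation channel, lay at 5.81 to 6.21 with Shh, 5.01 to 5.65 with Ihh and 4.99 to 5.48 with Vehicle, with a difference of 0.71 ± 0.18 (adjusted p = 0.285). Its second probe set gave 0.08. Qpct, which forms pyroglutamate at the N terminus of peptides, lay at 7.44 to 7.60 with Shh and 7.18 to 7.24 with Ihh, and its interval of 0.17 to 0.44 was within 1.5-fold.

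Ihh-higher genes chosen by the same fold and lack of overlap included the cytokine Il6 and genes of neurons and glia, again short of the threshold. Il6 read 5.43, 5.37 and 4.9997 log2 with Shh, 6.21, 6.21 and 5.47 with Ihh and 7.69, 7.27 and 7.08 with Vehicle. Vehicle was highest, as for Acod1 and Marco, but the lowest group was Shh and not Ihh. The Shh minus Ihh difference of Il6 was -0.69 ± 0.22 (SE, adjusted p = 0.308). Its Shh readings and that of Ihh 3 were below the array medians, where RMA compresses differences. Chat makes acetylcholine, and Slc18a3, which loads it into vesicles, lies in the first intron of Chat. Slc18a3 read 4.85, 6.20 and 6.15 with Shh, 7.25, 7.29 and 6.59 with Ihh and 7.24, 7.32 and 6.89 with Vehicle, and its difference was -1.31 ± 0.33 (adjusted p = 0.285). Shh 1 was the lowest array by more than 1 log2 unit. Chat lay at 5.56, 6.00 and 5.95 with Shh and 6.54, 6.75 and 6.13 with Ihh, with a difference of -0.64 ± 0.16 (adjusted p = 0.285). The dendritic microtubule gene Map2 differed by -0.61 ± 0.19 and the glial receptor gene Gpr37l1 by -0.62 ± 0.19 (both adjusted p = 0.308). The other 3 probe sets of Map2 gave -0.30, -0.12 and 0.00.

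Another 5 genes chosen in this way follow, from the 15 Ihh-higher genes of 1.5-fold or more without overlap. A2m, a protease inhibitor, differed by -0.75 ± 0.18, the secretoglobin gene Scgb3a1 by -0.60 ± 0.15 and the predicted gene Gm6958 by -0.89 ± 0.22 (all adjusted p = 0.285). Plcxd3 differed by -0.85 ± 0.24 (adjusted p = 0.292). Hpgd, which breaks down prostaglandins, differed by -0.79 ± 0.22 (adjusted p = 0.292), with a second probe set at -0.09. Hpgd lay at 6.69 to 6.99 log2 with Ihh but at 5.59 to 6.33 with Shh and 5.60 to 6.33 with Vehicle. Among responding genes the one nearest to the threshold was H3f3b, for histone H3.3, with 7.01, 6.98 and 6.99 log2 with Shh, 7.55, 7.44 and 7.42 with Ihh and 7.81, 7.74 and 7.63 with Vehicle (-0.47 ± 0.06, adjusted p = 0.088). Another 5 probe sets shared by H3f3b with related genes were much brighter, at 11.89 to 12.94 log2, and gave -0.13 to 0.05.

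Among direct readouts of hedgehog signalling, Ptch1 and Hhip were bounded within 1.5-fold between the ligands, and Gli1 was not. Ptch1 read 10.41, 10.88 and 10.35 log2 with Shh, 10.57, 10.49 and 10.98 with Ihh and 9.25, 9.11 and 9.06 with Vehicle. All 6 ligand arrays lay above Vehicle, and the ligands overlapped. The difference was -0.13 (95% interval -0.48 to 0.22), so that Ihh gave 1.09 times the Shh level (0.859 to 1.39). Hhip, a decoy receptor that binds the ligands, lay at 5.38, 5.43 and 5.54 with Shh and 5.34, 5.35 and 5.68 with Ihh, a difference of -0.00 (-0.26 to 0.26). All 6 of these Hhip readings were below the array medians, where RMA compresses differences, so a ligand difference may be understated. Gli1 was less well resolved. It read 5.89, 6.56 and 5.63 with Shh and 6.34, 6.03 and 6.27 with Ihh, and its interval of -0.65 to 0.27 passed 1.5-fold on the Ihh side. The same held for Myocd, a coactivator of smooth muscle genes, at -0.26 (-0.78 to 0.26). Among mesenchymal targets, Foxf1 differed by -0.08, Foxf2 by 0.02, Foxl1 by 0.09 and Bmp4 by 0.12, each within 1.5-fold.

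Of the 21 hedgehog target genes measured, 4 responded to the ligands (Ptch1, Gli1, Hhip and Myocd), and 2 of these 4 lay within 1.5-fold. Over all 21 targets 19 did, and over 27 pathway components all 27, beside 95.7% of all genes, but most of these genes did not pass the test against Vehicle. Of the 21 targets 9, and of the 27 components 7, read below the array median on at least 1 array. The co-receptor gene Gas1, which fell with the ligands, lay at 10.95, 11.27 and 11.15 log2 with Shh, 11.54, 11.39 and 11.08 with Ihh and 11.83 to 12.01 with Vehicle, a ligand difference of -0.21 (-0.48 to 0.05). Smo differed by -0.10 (-0.31 to 0.12), Gli2 by -0.10 (-0.29 to 0.09) and Gli3 by -0.13 (-0.33 to 0.07). The components with an unadjusted p under 0.05 were Stk36, a kinase of the pathway (0.23), and Scube1, of a family that helps release the ligands (0.15), both higher with Shh. These were 2 of the 27, beside 7.17% of all genes higher with Shh at that p. The mean of all probe sets of Stk36 gave -0.01. Among targets, those with such a p were Mycn (-0.25) and Ccnd1 (-0.15), drivers of proliferation, both higher with Ihh. That was 2 of the 21, beside 5.97% of all genes higher with Ihh at that p. The means of all probe sets of Mycn and Ccnd1 were -0.04 each. The ligands' own transcripts did not separate the groups. Shh lay at 6.00 to 6.13 log2 with Shh and 6.06 to 6.17 with Ihh, and Ihh at 4.49 to 4.81 with Shh and 4.48 to 4.64 with Ihh. All 16 primary cilium genes and all 16 cholesterol synthesis genes, both needed for the response to hedgehog, lay within 1.5-fold. So did all 24 stress and immediate early genes and all 9 red blood cell genes.

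**Figure D2:**
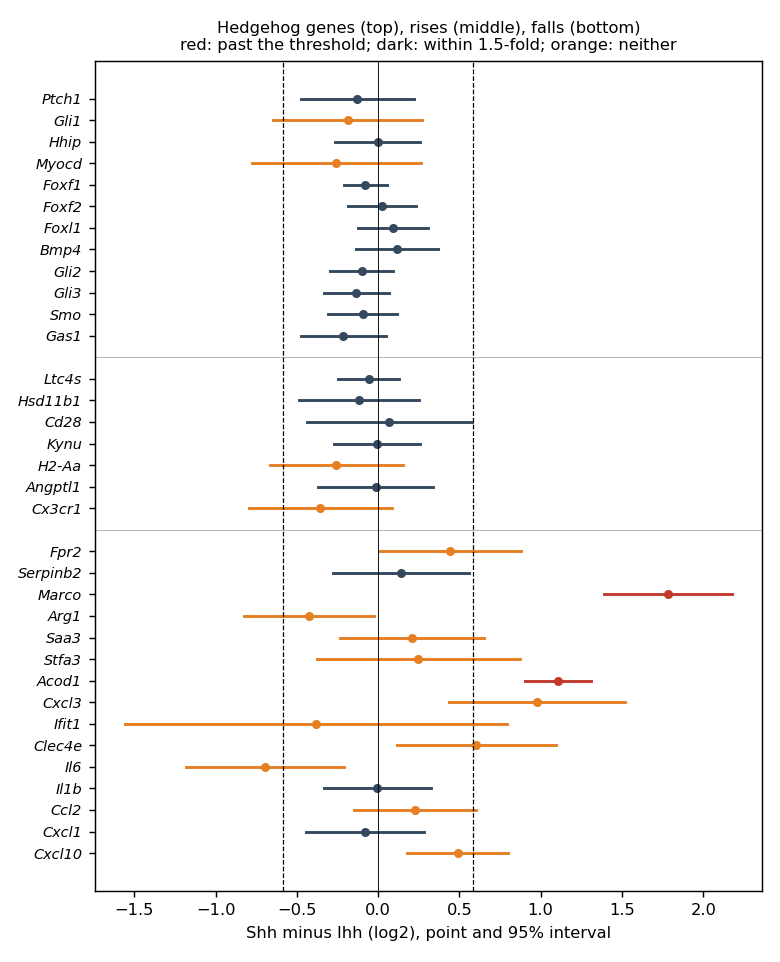
Shh minus Ihh difference (x axis, log2; points) with its 95% confidence interval (lines) for hedgehog genes, for large rises and for large falls against Vehicle; dashed lines mark 1.5-fold. Ptch1 and Hhip lie inside the dashed lines, Gli1 and Myocd extend past them, and Acod1 and Marco lie wholly outside.

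Genes that respond to hedgehog were picked by the mean of both ligands against Vehicle. That contrast is built to be uncorrelated with the one between the ligands, but both share the same estimate of each gene's spread. Picking by a small p favours genes of small estimated spread, whose ligand intervals are narrower, so the counts below are not free of this selection. The contrast with Vehicle called 274 genes (1.51%), of which 79 rose (0.434%) and 195 fell (1.07%). The Shh minus Ihh interval lay within 1.5-fold for 223 of the 274 (81.4%) and within 1.25-fold for 110 (40.1%). Both shares were smaller than those of all genes, 95.7% and 69.0%. Of the 274, 2 differed (Acod1 and Marco), and the other 49 were settled neither way. Of the risen genes 72 of 79 lay within 1.5-fold, with a median change against Vehicle of 0.53 log2 for Shh and 0.49 for Ihh. Of the fallen genes 151 of 195 did, with medians of -0.59 for Shh and -0.55 for Ihh. A bound of 1.5-fold is about as wide as the median response itself, so for a typical responding gene it does not show equal responses. The median size of the ligand difference was 0.14 log2 among responding genes and 0.08 among all genes. The Shh mean was above the Ihh mean in 131 of the 274, against 55.8% of all genes. An unadjusted p under 0.05 was found for 66 (24.1%), beside 13.1% of all genes, with 27 of the 66 higher with Shh and 39 with Ihh.

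The number of responding genes depended on single arrays. It was 99 without Vehicle 2, 105 without Vehicle 1, 143 without Ihh 2, 156 without Shh 2, 173 without Shh 3, 175 without Ihh 3 and 416 without Vehicle 3. Of these sets 77, 85, 106, 110, 129, 122 and 342 genes, in the same order, lay within 1.5-fold between the ligands.

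**Figure D3:**
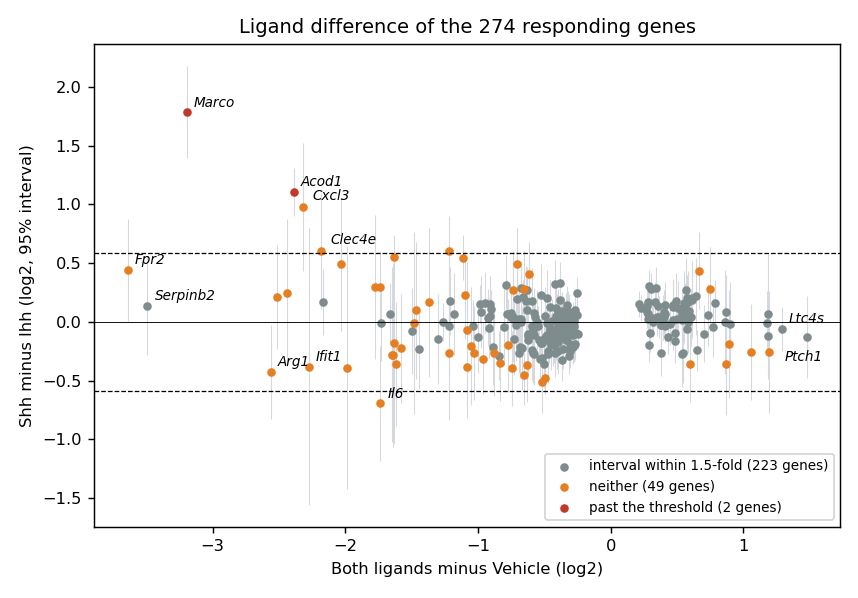
Shh minus Ihh difference (y axis, log2, lines for the 95% interval) against the mean change of both ligands from Vehicle (x axis, log2) for the 274 responding genes; dashed lines mark 1.5-fold. Points of 223 genes have intervals inside the dashed lines, and Marco and Acod1 stand above them among the strongly fallen genes.

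Several of the strongest responses were bounded within 1.5-fold between the ligands, which does not show that they were equal. Ltc4s, which makes leukotriene C4, read 7.74, 7.73 and 7.87 log2 with Shh and 7.79, 7.82 and 7.89 with Ihh, from 6.36 to 6.69 with Vehicle, a ligand difference of -0.06 (-0.25 to 0.13). Kynu, an enzyme of tryptophan breakdown, rose by 1.17 with Shh and 1.18 with Ihh, a difference of -0.01 (-0.27 to 0.26). Hsd11b1, which regenerates active glucocorticoid, differed by -0.12 (-0.49 to 0.25). Serpinb2, an inhibitor of plasminogen activators, fell by 3.42 with Shh and by 3.56 with Ihh, a difference of 0.14 (-0.28 to 0.56), though at 4.15 to 4.75 log2 its ligand arrays were dim. The inflammatory cytokine gene Il1b fell by 1.74 with Shh and by 1.73 with Ihh, a difference of -0.01 (-0.33 to 0.32). The neutrophil chemokine gene Cxcl1 fell by 1.53 with Shh and by 1.46 with Ihh, a difference of -0.08 (-0.44 to 0.28). These bounds put Il1b and Cxcl1 within 1.5-fold, in contrast to Acod1 and Marco, which share their direction against Vehicle.

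Other strong responses were not settled. Fpr2, a formyl peptide receptor, lay at 5.84 to 6.41 log2 with Shh, 5.40 to 5.81 with Ihh and 9.10 to 9.77 with Vehicle, and its difference was 0.44 (0.01 to 0.88, adjusted p = 0.377). Arg1, which breaks down arginine, lay the other way at -0.42 (-0.82 to -0.02, adjusted p = 0.37). The acute phase gene Saa3 differed by 0.21 (-0.23 to 0.65). Among responding genes with lower Shh values were also the AP-1 gene Fos, at 9.71, 9.66 and 9.72 with Shh and 10.16, 10.04 and 9.85 with Ihh (-0.32 ± 0.08), and Nfil3, a leucine zipper repressor (-0.46 ± 0.11, both adjusted p = 0.285). Nwd2 differed by -0.52 ± 0.12 (adjusted p = 0.284). Angptl4, an inhibitor of lipoprotein lipase, differed by -0.29 ± 0.07 (adjusted p = 0.285), with a dimmer second probe set at 0.05.

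Across the 36 inflammatory cytokine and chemokine genes measured, 17 lay within 1.5-fold, a smaller share than the 95.7% of all genes. None of the 36 passed the threshold. At an unadjusted p under 0.05, 7 were higher with Shh and 1, Il6, with Ihh, beside 7.17% and 5.97% of all genes. The 7 included Cxcl3, Tnf (0.26, within 1.5-fold) and the interferon-induced chemokine gene Cxcl10, which read 7.90, 7.98 and 7.82 log2 with Shh, 7.18, 7.60 and 7.45 with Ihh and 8.57, 8.46 and 8.05 with Vehicle (0.49, 0.18 to 0.80, adjusted p = 0.292). The count of 7 was 4 without Shh 1 or without Ihh 2, and 11 without Shh 3. The median difference of the list was 0.07, against 0.02 over all genes, and it was 0.01 without Shh 1 and 0.02 without Ihh 1. Ccl2, a monocyte chemokine, differed by 0.23 (-0.15 to 0.60). Of 19 NF-kB target genes 18 lay within 1.5-fold, the exception being Tlr2.

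Interferon-stimulated genes were the least resolved of the 34 lists. Of 21, 4 had intervals within 1.5-fold, and at an unadjusted p under 0.05 a single gene, Mx2 (0.23), differed. Ifit1, which blocks translation of viral RNA, lay at 5.16 to 6.05 log2 with Shh and 5.27 to 6.498 with Ihh, with an interval of -1.56 to 0.80. The Vehicle arrays themselves ran from 6.70 to 8.85. The mean of the 21 genes, taken relative to the 6 ligand arrays, was -0.23, -0.06 and 0.10 with Shh, 0.08, 0.41 and -0.31 with Ihh and 1.61, 1.61 and 0.36 with Vehicle, so the ligand groups overlapped.

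Of 27 macrophage and leukocyte genes 23 lay within 1.5-fold, a smaller share than the 95.7% of all genes, and Marco alone passed the threshold. The Shh mean was higher for 14, beside 55.8% of all genes, and the Ihh mean for 13, with a median difference of 0.04. The mean of the 26 genes other than Marco was -0.02, -0.02 and 0.03 on the Shh arrays, -0.03, 0.05 and -0.02 on the Ihh arrays and 0.17, 0.26 and 0.04 on the Vehicle arrays, so the ligand groups overlapped. Marco was left out of this mean after its values were seen. Lyz2, the lysozyme gene, read 13.09, 13.03 and 12.99 log2 with Shh and 12.89, 12.71 and 12.77 with Ihh (0.24, 0.11 to 0.38), and Cd53 differed by 0.21 (0.05 to 0.38). The part of macrophage number in the difference of Acod1 and Marco was not tested. The fractalkine receptor gene Cx3cr1 lay the other way, at -0.36 (-0.79 to 0.08). Of 9 MHC class II genes, which present antigen, 0 passed the threshold, and the median difference was -0.26. H2-Ab1 read 7.0004, 7.19 and 7.24 with Shh and 7.47, 7.62 and 7.29 with Ihh (-0.31, adjusted p = 0.339), and Cd74, the invariant chain, 7.86, 7.96 and 7.92 against 8.34, 8.60 and 7.97 (-0.39, adjusted p = 0.343). The median of the list was -0.10 without Ihh 2 and -0.00 without less specific probe sets. Of 12 complement genes 11 lay within 1.5-fold, as did 11 of 12 lymphocyte genes, 10 of 12 mast cell genes and 14 of 16 immune-restraining genes, with 0 past the threshold in these 4 lists. Each of the 4 shares was below the 95.7% of all genes.

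Markers of enteric neurons and glia held more Ihh-higher genes at an unadjusted p under 0.05 than any other of the 34 lists. Of 16 measured, 9 were higher with Ihh on that measure, 0 were higher with Shh and 0 passed the threshold, beside 5.97% of all genes higher with Ihh at that p, and the median difference was -0.28. The glial fatty acid binding protein gene Fabp7 read 10.18, 10.21 and 10.30 log2 with Shh and 10.53, 10.64 and 10.40 with Ihh (-0.29 ± 0.08, adjusted p = 0.29), and the neuronal gene Uchl1 8.86, 8.88 and 8.98 against 9.21, 9.18 and 9.04 (-0.23 ± 0.08, adjusted p = 0.314). The count of 9 became 2 without Shh 1, 2 without Ihh 1, 3 without Ihh 2, and 5 without Shh 3. The list mean was -0.24, -0.04 and -0.07 on the Shh arrays, 0.23, 0.18 and -0.05 on the Ihh arrays and 0.22, 0.15 and -0.05 on the Vehicle arrays, so Ihh 3 overlapped with Shh.

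Endothelial, hypoxia and immediate early lists also held more Ihh-higher than Shh-higher genes, again with 0 past the threshold. Of 17 endothelium markers 4 were higher with Ihh and 1 with Shh at an unadjusted p under 0.05, a measure on which 5.97% and 7.17% of all genes were higher. The 4 became 1 without Shh 1 or Ihh 1, 2 without Ihh 2 and 10 without Ihh 3. Flt1, a VEGF receptor, read 7.80, 8.03 and 8.01 log2 with Shh and 8.80, 8.55 and 8.25 with Ihh (-0.58, -0.89 to -0.28, adjusted p = 0.284). Of 19 hypoxia and glycolysis genes 5 were higher with Ihh and 0 with Shh at an unadjusted p under 0.05, beside the same 5.97% and 7.17%. The 5 included Pdk1 (-0.53, adjusted p = 0.322) and the mitophagy gene Bnip3 (-0.53, adjusted p = 0.328). The count of 5 was 0 without Ihh 1, 1 without Shh 1, 2 without Ihh 2, 3 without Shh 2, and 8 without Ihh 3. The hypoxia list mean was -0.15, -0.09 and -0.05 with Shh, 0.21, 0.07 and 0.01 with Ihh and 0.44, 0.25 and 0.09 with Vehicle. The endothelium list mean was -0.14, -0.08 and -0.03 with Shh and 0.27, 0.11 and -0.13 with Ihh, where the groups overlapped. Ihh 1, the array whose Gapdh signal differed from the other ligand arrays, had the highest ligand value of the neuronal, endothelial and hypoxia lists, and with Gapdh as a covariate the Ihh-higher counts were 5 of 16, 4 of 17 and 2 of 19. All 24 stress and immediate early genes lay within 1.5-fold, beside 95.7% of all genes. At an unadjusted p under 0.05, 5 of them were higher with Ihh and 1 with Shh, the 5 including Hspa1a (-0.26) and Ier2 (-0.31). The 5 became 3 without Ihh 1 and 8 without Ihh 3. Mesenchymal growth factors and receptors leaned the same way, with 5 of 28 higher with Ihh, 1 with Shh on that measure and 0 past the threshold. Their count of 5 was 1 without Ihh 1, 2 without Shh 1 or Ihh 2, 3 without Shh 2, and 8 without Ihh 3.

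**Figure D4:**
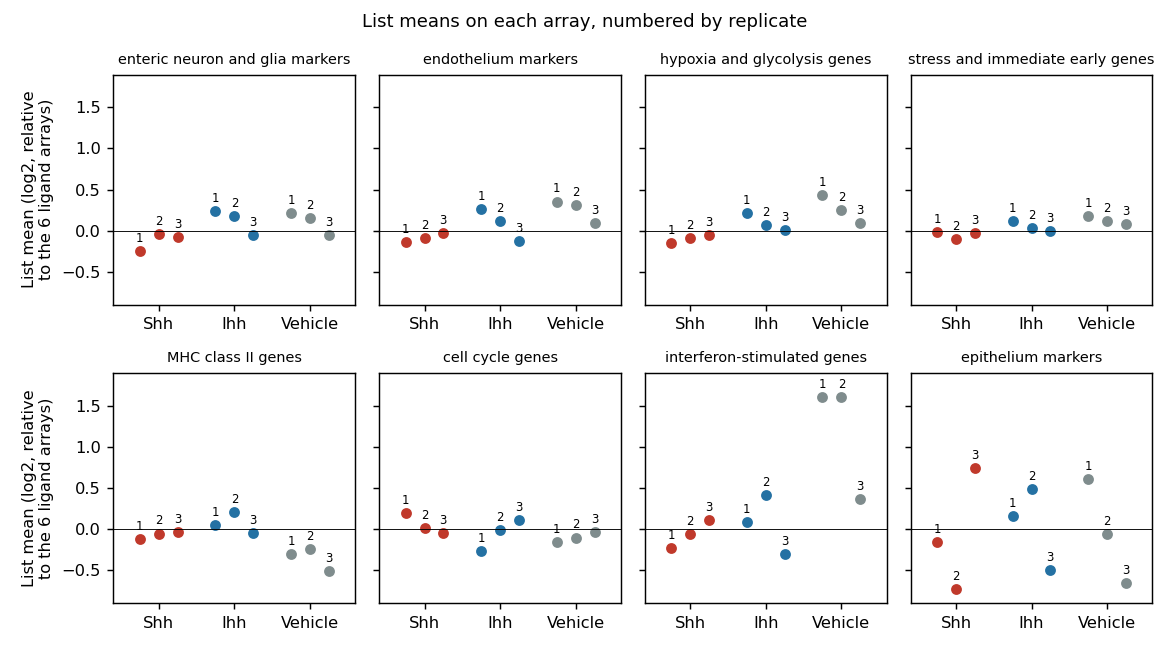
Mean of 8 gene lists on each array (y axis, log2 relative to the 6 ligand arrays; points numbered by replicate) for Shh, Ihh and Vehicle. Hypoxia genes have all Ihh points above the Shh points, while in the enteric neuron and endothelium lists Ihh 3 falls among the Shh points, and epithelium markers spread widely within each group.

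Cell cycle genes leaned to Shh by a small amount. The Shh mean was above the Ihh mean in 29 of 30, beside 55.8% of all genes, with a median difference of 0.12 log2, while 28 lay within 1.5-fold and 1, Ccne1 (0.16), had an unadjusted p under 0.05, which 7 had without Ihh 3. Without Shh 1 the count was 19 of 30, and without Ihh 1 it was 18 of 30. The list means were 0.20, 0.02 and -0.05 with Shh and -0.27, -0.01 and 0.11 with Ihh, so the groups overlapped. All 9 red blood cell genes had the higher mean with Shh, with a median of 0.11, at levels below the array median on at least 1 array for each.

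Structural and patterning genes of the mesenchyme lay within 1.5-fold about as often as the 95.7% of all genes, or less often. Of 31 extracellular matrix genes 29 lay within 1.5-fold, of 15 fibroblast markers 14, of 29 WNT signalling genes 28, of 31 Hox genes 30 and of 30 gut mesenchyme transcription factors 27. Among gut mesenchyme transcription factors the homeobox gene Meis1 lay at 8.73 to 8.94 log2 with Shh and 9.12 to 9.32 with Ihh (-0.36, -0.54 to -0.18, adjusted p = 0.284). Of 31 BMP and TGF-beta signalling genes 25 lay within 1.5-fold, of 16 matrix proteases and inhibitors 10 and of 28 growth factors and receptors 22. The growth factor gene Igf2 read 10.95, 11.38 and 11.08 with Shh and 11.66, 11.50 and 11.43 with Ihh (-0.39, -0.66 to -0.12, adjusted p = 0.308). The means of all probe sets were smaller, -0.15 for Meis1 and -0.13 for Igf2. Of 20 smooth muscle contractile genes 15 lay within 1.5-fold, Acta2 at 0.15 (-0.06 to 0.37) among them. The Shh mean was higher for 15 of the 20, beside 55.8% of all genes, and the Ihh mean for 5, with a median difference of 0.09. Without Ihh 1 these were 5 and 15, with a median of -0.03. Among the 5, Synm, an intermediate filament gene, lay at 8.17 to 8.35 with Ihh against 7.63 to 7.99 with Shh (-0.43 ± 0.10, adjusted p = 0.284).

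Remaining epithelial transcripts limited what could be read from epithelial genes. Of 24 epithelium markers 8 lay within 1.5-fold and 0 had an unadjusted p under 0.05. Their list mean was -0.15, -0.73 and 0.74 on the Shh arrays and 0.16, 0.48 and -0.50 on the Ihh arrays, a spread within each group that was wider than the difference between them. Among sex-linked genes Eif2s3y differed by -2.98 (-5.78 to -0.18, adjusted p = 0.369) and Xist by -0.67 (-3.79 to 2.45), with Shh 3 on the other side of the Shh group in both.

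**Figure D5:**
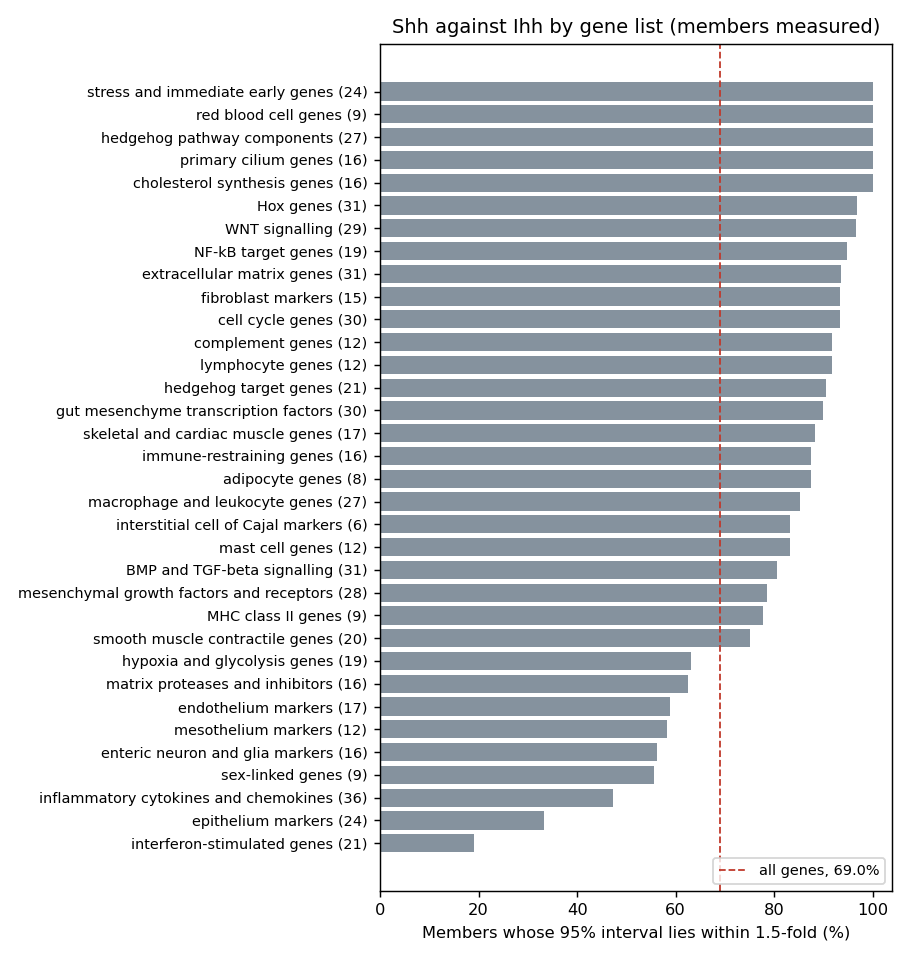
Percent of measured members whose Shh minus Ihh 95% interval lies within 1.5-fold (x axis, from 0) for 34 gene lists. The number measured is in parentheses. The dashed line is at 69.0%, the share of all genes within 1.25-fold, which is a narrower bound than that of the x axis. Within 1.5-fold the share of all genes was 95.7%, so the line is not the reference for these lists. Hedgehog pathway, cilium, cholesterol synthesis, stress and red blood cell lists stand level at the top, at 100%, and the inflammatory, epithelium and interferon lists at the bottom.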

How the data were processed

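The deposited values were log2 expression of 45101 probe sets on 9 Affymetrix arrays, made by the authors with GCOS and RMA, per the submitters' processing notes (no versions are stated there). RMA includes background correction and normalization across arrays, so a shift of all genes together cannot be seen. Probe sets were named from the platform annotation. Of these, 34945 had 1 symbol, 932 several and 9160 none, and 64 were controls. Entrez identifiers of 18032 of the 18193 genes were in a RefSeq table (GRCm38.p6), which changed 0 symbols. A model of 3 group means was fitted over the 9 arrays using limma 3.58.1 (lmFit, eBayes; R 4.3.3; 6 residual and 3.88 prior degrees of freedom), two-sided, with Benjamini-Hochberg adjustment over all genes. The 95% intervals of single genes are not adjusted. Array numbers limit the precision. The steps were tested on simulated data. Alternatives covered normalization, filters, probe sets, variance model, covariates and single arrays.

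Named genes were those past the threshold, the next in rank that did not overlap and differed at least 1.5-fold (up to 10 a direction), the 10 largest rises and falls against Vehicle, up to 5 responding genes a direction, a list of always-named hedgehog, cytokine and sex-linked genes, and up to 3 of smallest p within each of 34 lists. The sex index was Xist minus the mean of Eif2s3y, Kdm5d and Uty, as Ddx3y had no probe set of its own symbol alone. The members and lists were chosen with earlier results of these data known.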

Additional observations from a re-analysis of the deposited data

Results flagged for a closer look

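In the fit of all 9 arrays, 2 genes passed the test of the difference between Shh and Ihh. Acod1 was higher with Shh than with Ihh by 1.11 log2, in 9 of 9 pairings of a Shh with an Ihh array. Marco was higher by 1.78 log2, also in 9 of 9 pairings.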

How the results depend on the processing

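The count of 2 genes between the ligands became 0 with only the 6 ligand arrays in the fit, 4 with the sex index as a covariate (Acod1, Marco, Gm6958 and Eif2s3y) and 1 with Gapdh as a covariate, and ranged from 1 to 2 when an array was left out. A further quantile normalization added H3f3b (adjusted p = 0.0418) and a trended and robust variance model added Mga, named after its values were seen. The count within 1.5-fold, 17409, was 10331 of 10916 without dim genes and 43136 of 45037 with probe sets tested singly, since other features were counted, and 16948 to 17524 without single arrays. Responding genes, 274, were 1126 with array weights, 144 with the sex index and 24 with Gapdh, and 99 to 416 without single arrays. Those within 1.5-fold between the ligands, 223, were then 956, 113, 15, and 77 to 342. The cause of these shifts was not tested.

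Replicate numbers are not stated to pair the arrays. Over 9 same-number pairs the correlation of deviations ran from -0.297 to 0.543, with 4 above 0.1. Between Ihh and Vehicle it was 0.353, 0.226 and 0.543. Between Shh and Ihh it was -0.163, -0.0824 and -0.297, and between Shh and Vehicle -0.108, 0.141 and -0.158. With 3 arrays per group these values cannot decide whether the arrays were paired. With the number as a block 2 genes were called, Acod1 (limma adjusted p = 0.0146) and Marco (0.0392), and responding genes numbered 379. No difference of a named gene that was past the threshold changed sign.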
